A study of Mus musculus with 8 samples.

Results

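The proteasome subunit genes examined here are the 40 of 11854 named genes in the deposited table whose symbol is Psma, Psmb, Psmc, Psmd or Psme followed by a number, with the interferon-inducible Psmb8 and Psmb9 left out. They comprise 16 genes of the core particle (8 of the alpha ring and 8 of the beta ring), 9 of the base of the regulatory particle (6 ATPases and 3 others), 8 of its lid, 3 chaperones of base assembly and 4 activators. Psmb11, the beta subunit of the thymus, was not analysed here. The libraries came from haematopoietic stem cells (HSCs) sorted out of bone marrow of C57BL/6 mice, 4 wild type and 4 Nupr1-/-, with 1 library per mouse. Nupr1 encodes a small stress-responsive regulator of transcription, and the design asks what differs in HSCs that lack it. The age and sex of the mice, the surface markers used for sorting and the extent of the deletion are not stated by the labels.

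The proteasome is the protease of the cytosol and nucleus that degrades proteins tagged with ubiquitin. Its barrel-shaped core holds the proteolytic sites inside rings of beta subunits, the outer alpha rings gate the entry, the ATPases of the base unfold the substrate, and the lid removes the ubiquitin. Alternative caps such as the Psme1-Psme2 activator open the core without ubiquitin, and protein quality control is known to matter for the maintenance of HSCs.

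Between 2296101 and 4769401 reads were assigned to genes per library, and the 40 subunit genes took 0.661% to 0.728% of them. Values below are normalised reads, that is, reads divided by 1 factor per library for depth. Nupr1 itself was read at 285.5, 134.0, 245.3 and 318.2 in the wild type (replicates 1 to 4, the order used throughout) and at 179.4, 173.3, 200.6 and 118.5 in the libraries labelled knockout, so the groups overlapped (log2 change -0.50 ± 0.34 SE, limma adjusted p = 0.433). The groups are therefore called by their labels. The group labels name Nupr1 and not Trp53, so Trp53 is no check of the Nupr1 genotype. Trp53 was 450.5, 528.2, 594.2 and 617.5 in wild type. In the labelled knockouts it was 118.1, 58.6, 102.5 and 118.5, without overlap (log2 change -2.49, limma adjusted p = 0.00155). Xist, which female cells express, was 0, 11.8, 0 and 0 in wild type and 122.5, 107.2, 113.1 and 159.3 in the labelled knockouts, so any difference between the groups that tracks Xist cannot be told apart from genotype. All 12 HSC markers examined were in the table, and none differed between the groups by limma (summed 8436 to 10853 in wild type and 7434 to 9833 in labelled knockouts). Of 10 megakaryocyte markers 9 were tested and 4 (Itga2b, Pf4, Vwf and Gp9) passed, with sums of 957 to 1308 against 2082 to 2604. Erythroid markers summed to 2275 to 4671 against 4177 to 6112 (6 of 10 in the table, 4 tested, of which Klf1 passed), and B-cell markers to 290 to 7634 against 213 to 380 (3 of 9), with the 2 highest values, 7634 and 2125, in wild type libraries 4 and 3. The sums of neutrophil, monocyte and macrophage, T and NK cell, and stromal and endothelial markers (1, 4, 3 and 5 of 10 in the table) overlapped between the groups. The part of these cell-type and library differences in the results below was not tested, and in bulk RNA fewer cells of a type and less RNA per cell cannot be told apart.

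As a group, the subunit genes varied less between libraries than the typical gene tested, and none passed the test for a difference between the genotypes. With limma (adjusted p under 0.05) 0 of 40 were called, where 3.8% of the 10989 genes tested were called. The counts were also 0 with edgeR and with DESeq2. At an unadjusted p under 0.05 there were 4 (10%: Psma2, Psmd2, Psme2 and Psma8), against 19.7% of all genes tested. Of the 40 log2 changes, labelled knockout minus wild type, 20 were above 0 and 20 below (18 and 22 with edgeR or DESeq2). Their median was 0.00 (0.03 over all genes tested). Only 5 members (12.5%) had a change over 0.5 on the log2 scale in either direction, against 48.8% of all genes tested. That background was not matched for expression level, which was higher in the members (median 482 normalised reads against 141). All 40 passed the filter on low values.

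Summed over the 40 genes, the level was 22722, 23949, 23283 and 24034 normalised reads across wild type libraries 1 to 4 and 22736, 23793, 23116 and 23555 in the labelled knockouts. The groups overlapped, with means of 23497 ± 616 and 23300 ± 469 (SD, n = 4), and the coefficient of variation over the 8 libraries was 2.21%. A sum averages over its genes, and no sum over other genes was set beside it. For single members, the SD of the log2 value over the 8 libraries had a median of 0.309, with 0.153 for Psma5 and 1.14 for Psma8 at the ends. For all genes tested that median was 0.65. Subunit genes are well expressed, with a median of 482 normalised reads against 141 for all tested. Among the 6006 tested genes in the same range of means as the members other than Psma8 (118 to 1765), the median SD was 0.493. Of the 40 members, 32 were below that median. The range shares its ends with the members but not their distribution of means. The part of expression level in the small spread was therefore not tested.

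The absence of a call came with an interval for each gene. The 95% interval of the change stayed within 2-fold in either direction for 33 members (82.5%, against 24.9% of all genes tested) and within 1.5-fold for 9. For 7 members (Psma8, Psmb2, Psmd13, Psmd2, Psmd4, Psmd5 and Psmd9) it reached past 2-fold. The 24.9% over all genes tested was again not matched for expression level. The members rested on at least 56 reads in every library except Psma8, with 7 reads in its lowest library.

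**Figure D1:**
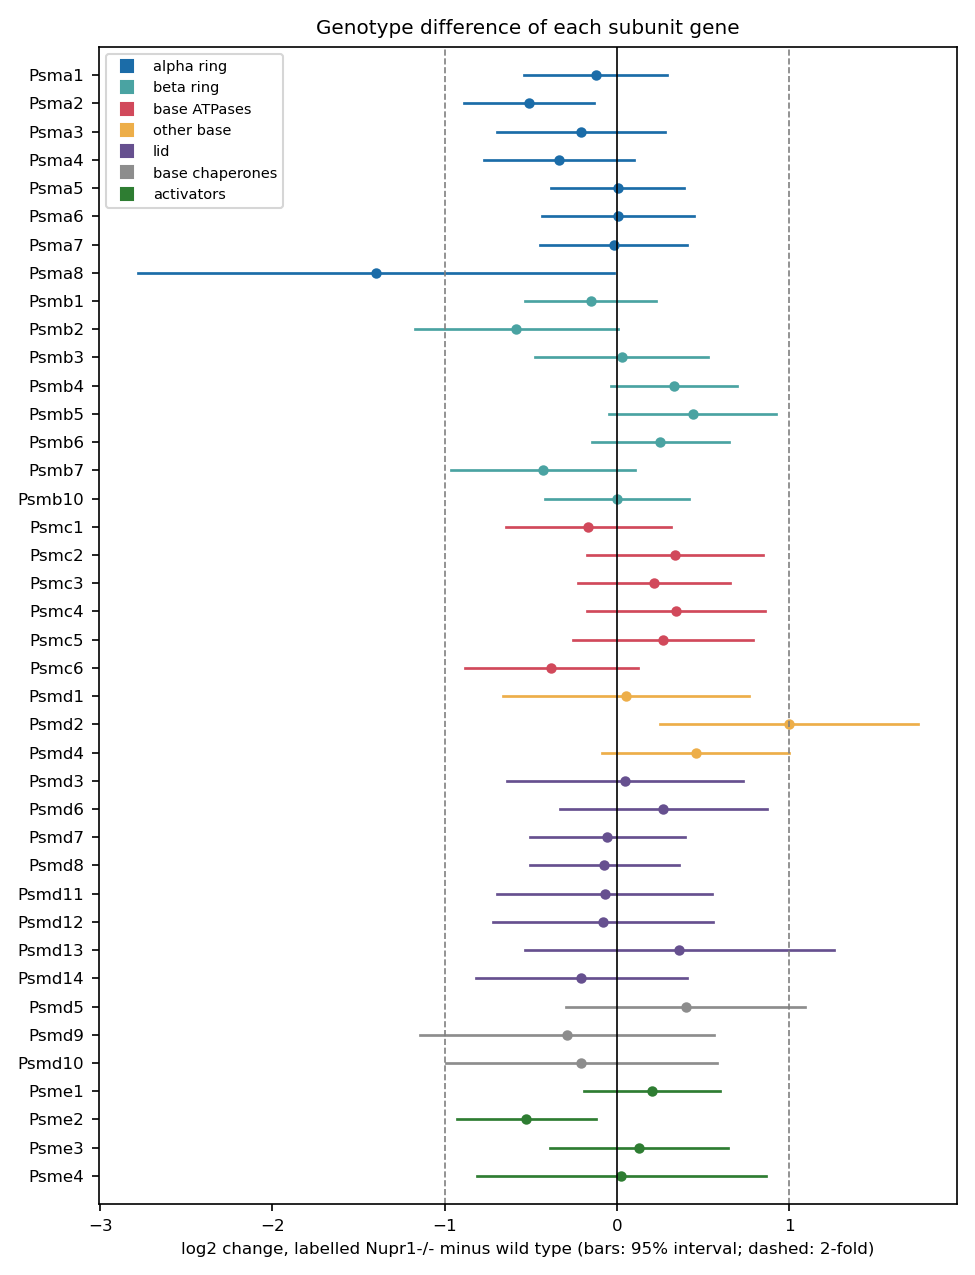
Log2 change of each of the 40 subunit genes, labelled Nupr1-/- minus wild type (horizontal axis, points), with 95% intervals from limma as bars; colours mark the subcomplex and dashed lines a 2-fold change. Most intervals span 0 and stay within the dashed lines; Psma2, Psme2, Psmd2 and Psma8 are the 4 whose interval does not reach 0, and none passed after adjustment.

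Levels of different genes are compared per kilobase of transcript. The core genes and the Psme1-Psme2 pair were highest. Psme1 led with a mean of 1587 normalised reads per kilobase (1070 to 1952 over the 8 libraries), followed by Psmb4 at 1256 (868 to 1474), Psmb6 at 1052 and Psma7 at 958. The ranges of these neighbours in the order overlapped. Of the 14 highest genes 12 were core genes, and the other 2 were Psme1 and Psme2. The median per kilobase over core genes was 593 to 734 in the 8 libraries, above the 195 to 289 of base genes in every library. Lid genes had medians of 159 to 267 and the base assembly chaperones 41.3 to 70.3. The lowest genes were Psme4 at 35.3, Psma8 at 35.9, Psmd9 at 45.4 and Psmd5 at 49.2. Psma2 and Psma3 stand lower in this order (328 and 327) than by reads, with annotated transcripts of 2911 and 2846 bases.

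**Figure D2:**
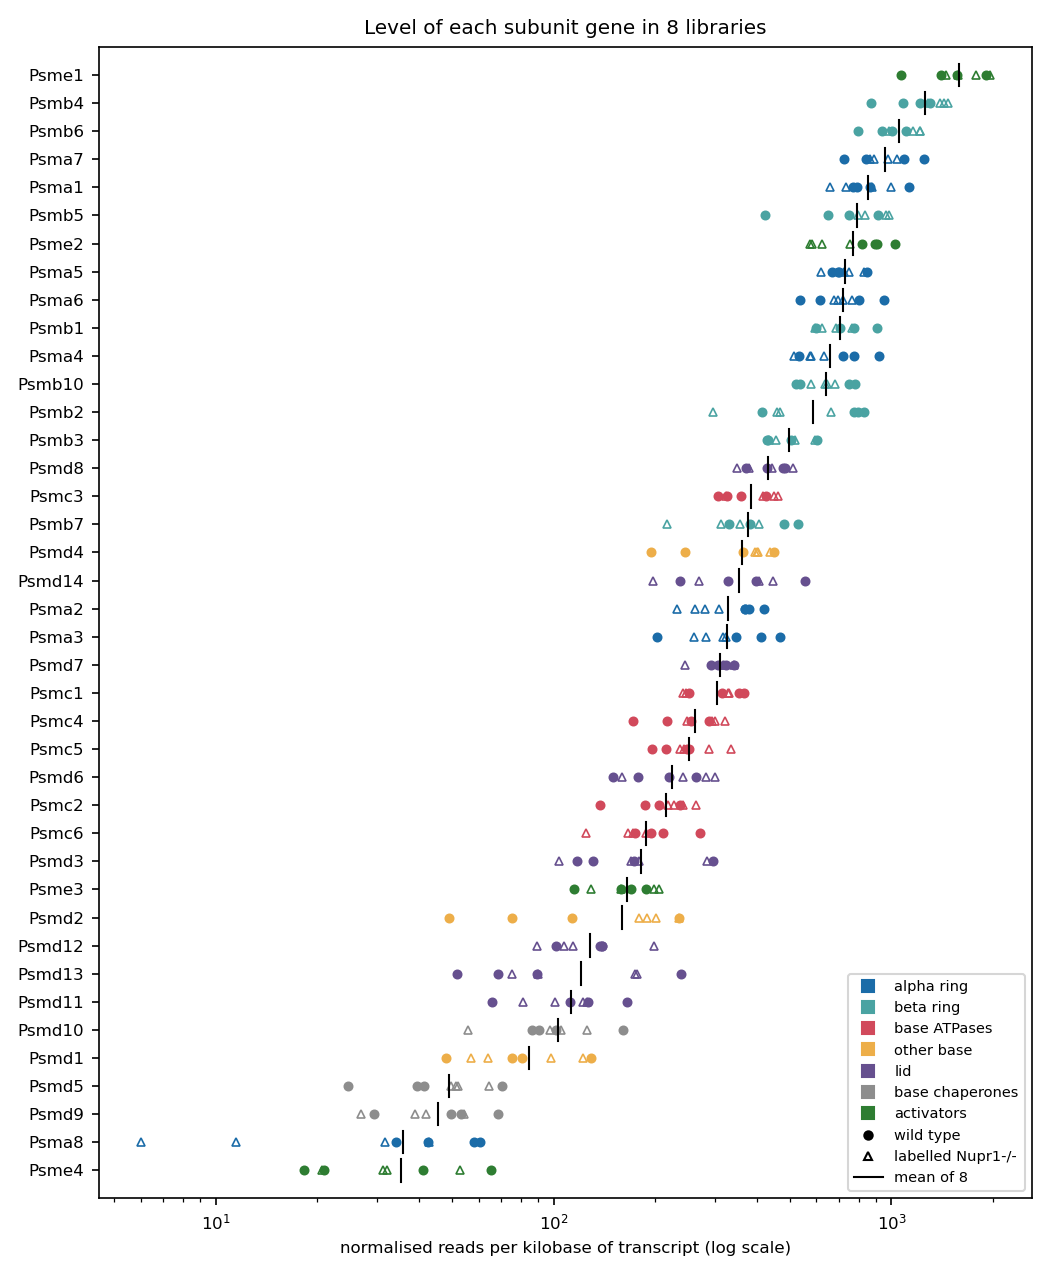
Normalised reads per kilobase of transcript (log axis) of the 40 subunit genes in each of 8 libraries, ordered by the mean of 8 (vertical tick); filled circles are wild type, open triangles labelled Nupr1-/-, and colours mark the subcomplex. Core genes fill most of the upper part together with Psme1 (mean 1587) and Psme2, and Psme4 and Psma8 lie lowest at 35.3 and 35.9.

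The alpha ring, which gates the core, held the member with the smallest adjusted p. Psma2, one of its constitutive subunits, was 1075, 1106, 1070 and 1223 normalised reads across wild type libraries 1 to 4 and 673.7, 765.6, 818.1 and 899.1 in the labelled knockouts. Every labelled knockout lay below every wild type library. The log2 change was -0.51 ± 0.18 (SE), 95% interval -0.89 to -0.13, and the limma adjusted p of 0.124 missed the threshold (0.0516 with DESeq2). With the trend in GC content and transcript length removed from each library, the value for Psma2 was 0.19 (limma adjusted p = 0.734), the opposite sign. Wherever the GC trend is said to be removed below, the length trend was removed with it. The parts of GC content and length were not separated. Psma2 has the second lowest GC content of the 40 transcripts, 39.4%. Only Psma2 and Psme2 of the 40 members (5.0%) had groups that did not overlap, against 11.7% of all genes tested.

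Psma8, a subunit known from the testis that can take the place of Psma7, was 98.2, 71.9, 57.8 and 102.8 in wild type and 10.2, 53.6, 19.4 and 72.2 in the labelled knockouts. The groups overlapped at the upper end of the labelled knockouts. Its log2 change of -1.40 ± 0.66 had a wide interval, -2.78 to -0.02, and a limma adjusted p of 0.251. With edgeR and DESeq2 the value for Psma8 was -1.08. Psma7 was 890 ± 217 against 861 ± 74.1 (SD, n = 4; log2 change -0.02). The other alpha genes had changes from -0.34 (Psma4) to 0.01 (Psma6). Psma1, the alpha gene of highest mean per kilobase after Psma7, had -0.12. Psma5 was 900 ± 101 in wild type and 904 ± 108 in labelled knockouts, and it had the smallest spread over the 8 libraries of all members. A near-identical copy, Gm8394, matches 76.5% of its transcript, so its reads may be split between them. The alpha ring summed to 6689 ± 491 in wild type and 5827 ± 407 in labelled knockouts, and library 2 of the labelled knockouts, at 6382, lay above wild type library 3, at 6244.

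The beta ring holds the proteolytic sites, and its catalytic genes did not pass the test in either direction. Psmb5, the subunit with chymotrypsin-like activity and the main target of bortezomib, was 671.9, 819.8, 379.9 and 583.5 in wild type and 867.7, 753.1, 715.7 and 887.0 in labelled knockouts. The groups overlapped through wild type library 2 (log2 change 0.44 ± 0.23, limma adjusted p = 0.302). The value was 0.13 with the GC trend removed and 0.23 without wild type library 3. A near-identical copy, Gm3375, matches 88.4% of the Psmb5 transcript, so reads may be split between them. Psmb6, with caspase-like activity, had 0.25 ± 0.19 (limma adjusted p = 0.487). Psmb7, with trypsin-like activity, had -0.43 ± 0.26 (limma adjusted p = 0.370), and 405 bases of its exons overlap Nek6 on the other strand, which these libraries cannot tell apart. The catalytic genes thus did not share a sign.

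Psmb4, a structural subunit and the beta gene of highest level, was 1027, 1279, 1543 and 1441 in wild type and 1515, 1645, 1744 and 1690 in labelled knockouts. Wild type library 3 lay above the lowest labelled knockout (log2 change 0.33 ± 0.17, limma adjusted p = 0.299). Psmb2, another structural subunit, was 667.0, 355.7, 712.9 and 684.0 in wild type and 393.7, 254.4, 569.0 and 401.9 in labelled knockouts. The overlap came from wild type library 2 alone (log2 change -0.58 ± 0.28, limma adjusted p = 0.258). The value was -0.82 without that library (limma adjusted p = 0.0503) and -0.38 without labelled knockout library 2 (limma adjusted p = 0.532). Psmb1 and Psmb3 had -0.15 and 0.03.

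The inducible subunits replace catalytic ones in the immunoproteasome. Psmb10, which replaces Psmb7 and stayed in the gene set, was 847 ± 181 in wild type and 834 ± 55.5 in labelled knockouts (SD, n = 4; log2 change -0.00, limma adjusted p = 0.999). Removing the GC trend gave -0.42 (limma adjusted p = 0.435). Psmb8, which replaces Psmb5 and lay outside the set, was 1694, 1979, 1558 and 2121 in wild type and 3094, 2943, 2154 and 2410 in labelled knockouts. Its groups did not overlap (log2 change 0.52, limma adjusted p = 0.0997, 0.0369 with DESeq2, 0.0495 without wild type library 2, and 0.12 on the log2 scale with the GC trend removed). The exons of Psmb8 overlap Gm20496 on the other strand over 498 bases, so its reads are uncertain. Psmb9, which replaces Psmb6 and overlaps Tap1 on the other strand over 212 bases, had 0.41 (limma adjusted p = 0.414). The ratio of Psmb8 to Psmb5 ran from 2.41 to 4.10 in wild type and from 2.72 to 3.91 in labelled knockouts, and those of Psmb9 to Psmb6 and Psmb10 to Psmb7 overlapped as well.

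In the base, which docks and unfolds substrates, Psmd2 had the largest positive change of all members. Psmd2, a scaffold that receives ubiquitin-binding shuttle proteins, was 145.5, 698.6, 336.0 and 223.0 in wild type and 529.4, 558.6, 593.7 and 697.2 in labelled knockouts. Wild type library 2 was the highest of all 8, and the other 3 wild type libraries lay below every labelled knockout. The log2 change was 1.0 ± 0.36, 95% interval 0.25 to 1.75, with a limma adjusted p of 0.129. Without wild type library 2, Psmd2 was the only member called, at 1.41 (limma adjusted p = 0.00388), in a fit that called 8.15% of all genes tested. Without wild type library 1 its value was 0.66 (limma adjusted p = 0.299), and with edgeR and DESeq2 it was 0.77 and 0.76. Wild type library 2 was the highest or lowest wild type library for 25 of the 40 members (62.5%, against 63.7% of all genes tested). Psmd4, a ubiquitin receptor, was 483.2, 325.2, 259.2 and 599.4 in wild type and 581.9, 533.7, 524.8 and 536.1 in labelled knockouts (log2 change 0.46 ± 0.26, limma adjusted p = 0.341). The labelled knockouts lay close together, inside the wild type range. With the GC trend removed the value for Psmd4 was 0.13, and without wild type library 3 it was 0.26. Psmd1, the other large scaffold of the base, had 0.05.

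Of the 6 ATPases, 4 had changes above 0 and 2 below, from -0.38 (Psmc6) to 0.34 (Psmc4), and 0 passed. Psmc3, the ATPase of highest level, was 579 ± 84.4 in wild type and 674 ± 102 in labelled knockouts (log2 change 0.22). Psmc6 turned to 0.50 with the GC and length trend removed; at 37.0% it has the lowest GC content of the 40. Summed over its 9 genes, the base was 3362, 3568, 3697 and 3654 in wild type and 3955, 3966, 4064 and 4440 in labelled knockouts. Those groups did not overlap, and their ratio was 1.15. Without Psmd2 the base summed to 3216, 2869, 3361 and 3431 against 3426, 3408, 3471 and 3743, and the groups overlapped (ratio 1.09). The median log2 change over base genes was 0.27, with 7 of 9 above 0, and 0.15 with the GC trend removed.

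**Figure D3:**
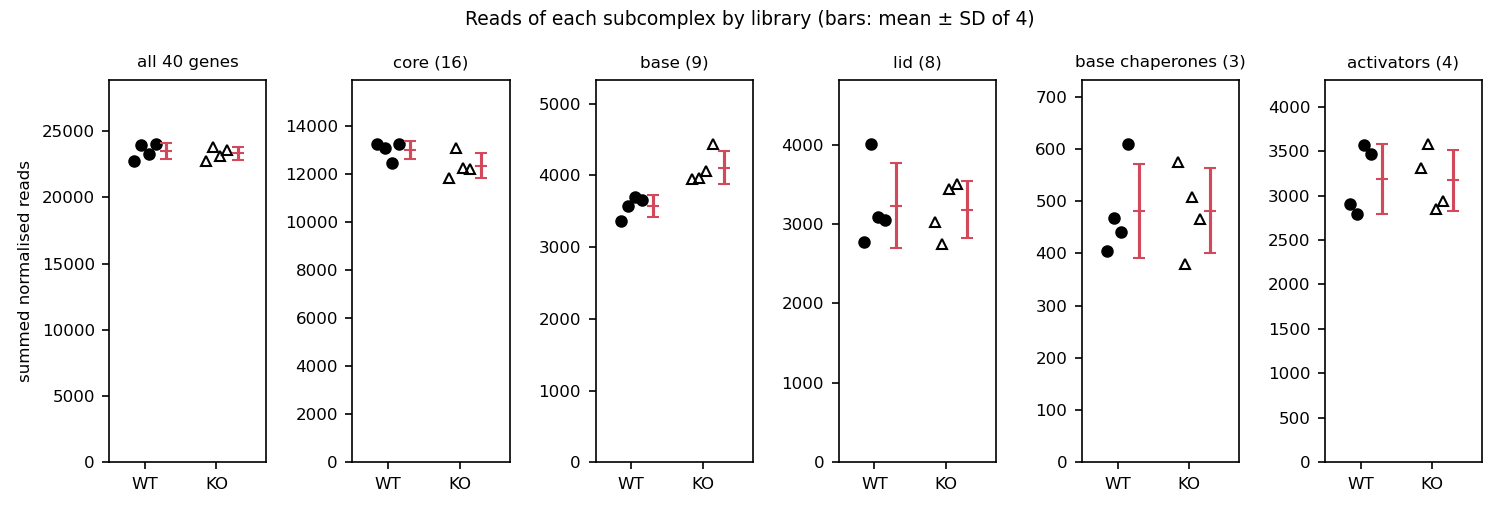
Summed normalised reads (vertical axes from 0, a scale for each panel) of all 40 genes and of 5 subcomplexes; circles are wild type libraries, triangles labelled knockouts, and red bars the mean ± SD of 4. The sum over 40 genes overlaps between the groups (means 23497 and 23300), while the base is higher in all 4 labelled knockouts (3570 against 4106). Without Psmd2 the base sums overlap as well, and no test was made on these sums.

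The lid, which removes ubiquitin chains, had a median change of -0.06, with 3 of 8 genes above 0 and 0 called. Psmd14, its deubiquitinase, was 364.9, 856.3, 504.5 and 611.5 in wild type and 415.6, 304.2, 688.3 and 625.0 in labelled knockouts. Both groups spread over more than 2-fold and overlapped throughout (log2 change -0.21 ± 0.29, limma adjusted p = 0.740). Psmd7, the partner of Psmd14 in the lid, was 500 ± 32.7 against 484 ± 67.3 (SD, n = 4), with the second smallest spread over the 8 libraries, an SD of 0.156 on the log2 scale. Psmd8, the lid gene of highest mean, was 678 ± 80.3 against 648 ± 111. Psmd6, a structural lid subunit, had the smallest p among lid genes above 0 (0.27 ± 0.29, limma adjusted p = 0.638). Psmd13, also structural, varied most within the lid, at 136.5, 475.0, 177.5 and 102.8 in wild type and 179.4, 149.6, 350.8 and 346.3 in labelled knockouts. Its exons overlap Sirt3 on the other strand over 342 bases, so its reads are uncertain.

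The chaperones of base assembly were low and did not share a sign. Psmd5 had 0.40 ± 0.33 (limma adjusted p = 0.536), Psmd9 -0.29 ± 0.41 (limma adjusted p = 0.738) and Psmd10, also known as gankyrin and encoded on the X chromosome, -0.21 ± 0.37 (limma adjusted p = 0.809). Their sum was 481 ± 90.0 in wild type and 482 ± 81.7 in labelled knockouts (SD, n = 4). Psmd9 overlaps Gm26745 on the other strand over 1849 bases and is uncertain.

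**Figure D4:**
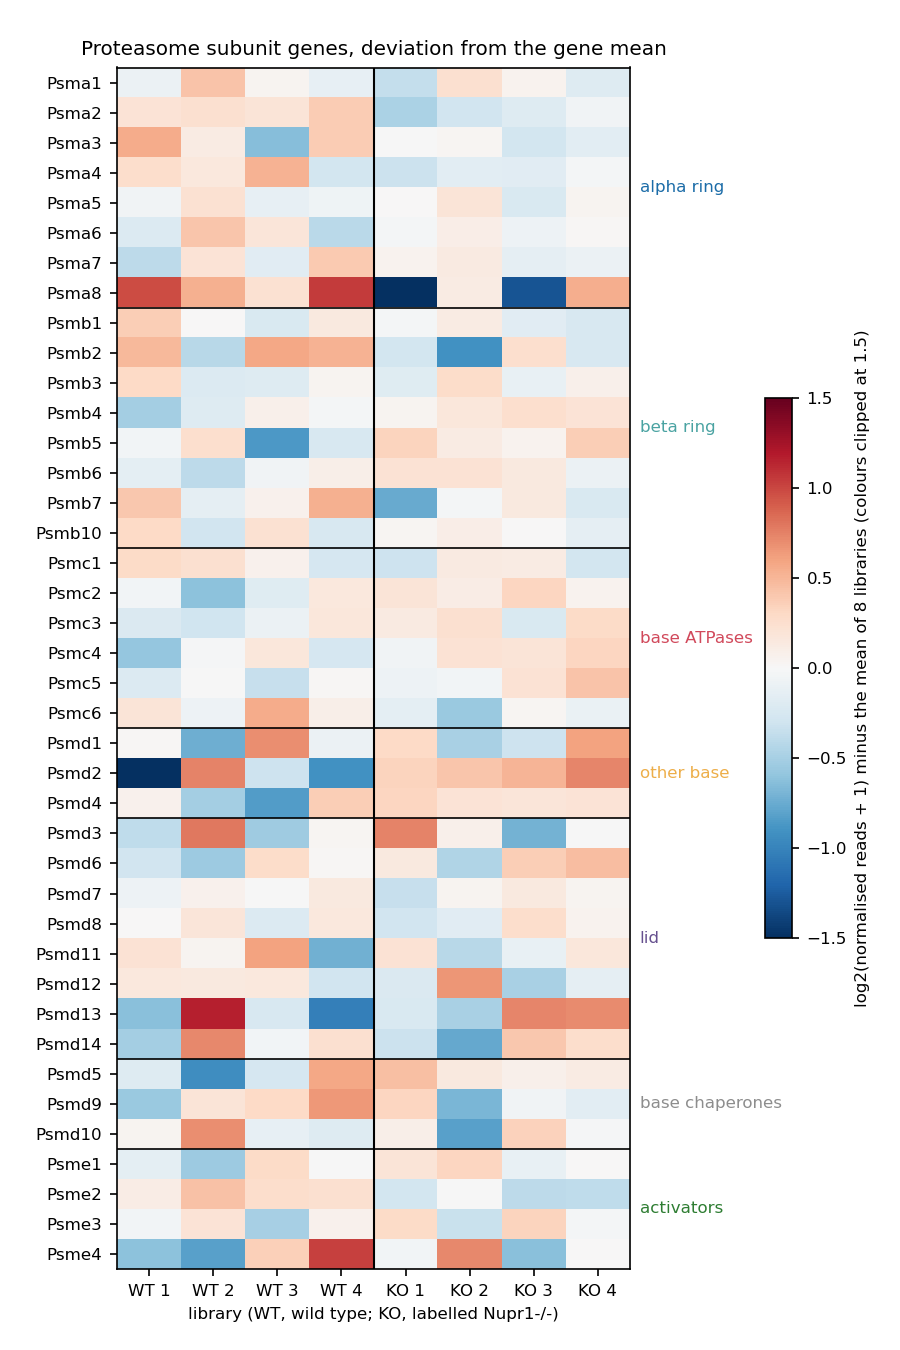
Deviation of each subunit gene from its own mean over 8 libraries, as log2(normalised reads + 1) (colour, clipped at 1.5), with genes in rows by subcomplex and libraries in columns, 4 wild type (WT) and 4 labelled knockout (KO). Psma2 and Psme2 are the only genes in which all 4 labelled knockouts lie below all 4 wild types; Psmd2 is high in wild type library 2 as well as in the labelled knockouts.

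Among the activators, the partners of one cap had values on opposite sides of 0. Psme1 and Psme2 together form the interferon-inducible ring that opens the core for peptide production, and they are neighbours on chromosome 14 (GRCm38, Psme1 at chr14:55578123-55581529 on the plus strand and Psme2 at chr14:55587441-55591113 on the minus strand). Psme2 was 784.7, 985.4, 874.4 and 857.9 in wild type and 600.8, 724.4, 552.2 and 560.2 in labelled knockouts. All 4 labelled knockouts lay below all 4 wild types, with a log2 change of -0.53 ± 0.19, 95% interval -0.93 to -0.12 and limma adjusted p = 0.137 (0.0648 with DESeq2). With the GC and length trend removed the value was -0.63 (limma adjusted p = 0.198). Psme1 was 1563, 1189, 2123 and 1733 in wild type and 1979, 2171, 1614 and 1747 in labelled knockouts. These groups overlapped (0.21 ± 0.19, limma adjusted p = 0.579), and with the trend removed the value was -0.08.

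The ratio of Psme1 to Psme2, which was chosen after the values had been seen and has no test, was 1.99, 1.21, 2.43 and 2.02 in wild type and 3.29, 3.0, 2.92 and 3.12 in labelled knockouts. The lowest labelled knockout was above the highest wild type. Psme2b, a copy that matches 82.5% of the Psme2 transcript, was at most 29.9 normalised reads. Adding it to Psme2 gave 814.7, 985.4, 881.4 and 859.4 in wild type and 602.3, 751.9, 553.1 and 563.0 in labelled knockouts, which still did not overlap. Psme3, which forms a nuclear cap of its own, had 0.13 ± 0.25, and Psme4, a single-chain cap, 0.03 ± 0.40 (limma adjusted p = 0.819 and 0.979). Summed, the activators were 3184 ± 391 in wild type and 3170 ± 340 in labelled knockouts.

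The promoters of the 3 members with the smallest p (Psma2, Psmd2 and Psme2) and of Psme1, the partner of Psme2, are shown to place these genes beside one another. Each runs from 250 bases before to 50 after the RefSeq start (GRCm38.p6), 5′ to 3′ on the strand of the gene. The windows are chr13:14612992-14613291 (+) for Psma2, chr16:20651402-20651701 (+) for Psmd2, chr14:55578244-55578543 (+) for Psme1 and chr14:55591052-55591351 (-) for Psme2. Capitals mark CCAAT (the box bound by the factor NF-Y), the ETS-family core CCGGAA and the antioxidant response core TGACNNNGC. All were searched on either strand, and the ETS core on the other strand reads TTCCGG.
Psma2: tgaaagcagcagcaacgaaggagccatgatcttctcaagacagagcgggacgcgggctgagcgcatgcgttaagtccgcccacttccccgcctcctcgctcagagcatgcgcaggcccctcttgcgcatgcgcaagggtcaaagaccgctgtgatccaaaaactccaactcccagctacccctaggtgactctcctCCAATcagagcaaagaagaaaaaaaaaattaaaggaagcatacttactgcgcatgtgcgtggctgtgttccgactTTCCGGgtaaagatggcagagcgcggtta
Psmd2: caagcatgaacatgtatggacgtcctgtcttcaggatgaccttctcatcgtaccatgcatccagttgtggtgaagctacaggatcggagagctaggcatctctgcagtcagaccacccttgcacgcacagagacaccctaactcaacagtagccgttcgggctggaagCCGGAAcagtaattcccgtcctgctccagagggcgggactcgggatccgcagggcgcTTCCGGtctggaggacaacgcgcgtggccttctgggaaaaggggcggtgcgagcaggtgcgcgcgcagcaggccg
Psme1: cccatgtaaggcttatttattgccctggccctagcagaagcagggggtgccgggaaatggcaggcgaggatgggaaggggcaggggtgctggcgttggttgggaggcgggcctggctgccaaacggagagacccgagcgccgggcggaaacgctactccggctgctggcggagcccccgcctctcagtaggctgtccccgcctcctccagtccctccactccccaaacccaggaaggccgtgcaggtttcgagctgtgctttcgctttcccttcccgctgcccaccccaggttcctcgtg
Psme2: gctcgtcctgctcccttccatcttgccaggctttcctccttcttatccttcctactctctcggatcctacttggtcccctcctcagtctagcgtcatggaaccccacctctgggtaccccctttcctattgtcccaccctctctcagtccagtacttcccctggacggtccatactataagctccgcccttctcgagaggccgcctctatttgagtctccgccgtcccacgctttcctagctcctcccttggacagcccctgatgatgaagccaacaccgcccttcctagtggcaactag
The Psma2 window held CCAAT between 54 and 50 bases before the start and 1 CCGGAA on the other strand after it. The Psmd2 window held CCGGAA at 82 to 77 bases before the start and again, on the other strand, at 25 to 20 bases before. The Psme1 and Psme2 windows held none of the 3. RefSeq promoters were matched for 33 of the 40 members. CCGGAA stood in 16 of the 33 (48.5%), against 28.5% of 10637 promoters of tested genes and 14.9% of all 32851. Each member was given 1 promoter, the nearest to its annotated start, while the other shares count every promoter of a gene. Some windows lay inside the annotated gene. That of Psmd9 began at chr5:123227940 in a gene annotated from 123169413, and its TGACNNNGC is counted below. The Psme1 window lay inside the gene annotated from chr14:55578123, so it does not cover the bases before that start. By role CCGGAA stood in 6 of 8 base promoters (Psmc1, Psmc2, Psmc5, Psmc6, Psmd2 and Psmd4) and 4 of 6 of the lid. It stood in 3 of 12 of the core, 2 of 4 of the activators and 1 of 3 of the chaperones. CCAAT stood in 12 of 33 (36.4%, against 37.9% of tested genes) and TGACNNNGC in 6 of 33 (18.2%, against 14.6%). No matches of different motifs overlapped. Such matches describe letters and are no evidence of binding.

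The changes of the members were ordered by the GC content of their transcripts. Across the 40 genes, which share the same 8 libraries, the rank correlation of GC content with the log2 change was 0.52, and across 10889 genes tested it was 0.46. The 20 members of lower GC content (up to 49.5%) had a median change of -0.14, with 13 below 0, and the 20 of higher GC content had 0.17, with 7 below 0. Within libraries, the rank correlation of GC content with the deviation of a gene from its mean was -0.31 to -0.14 in the 4 wild types and 0.15 to 0.31 in the 4 labelled knockouts. With the GC and length trend removed the medians were 0.21 and -0.04, and 12 members had changed sign. The rank correlation across the 40 members was then -0.51, so the removal, which was fitted over all genes, reversed the order among the members rather than flattening it. Trend-removed values of single members are to be read with that reversal. The median over all 40 was then 0.10, with 24 above 0 and 0 called. Whether the GC trend is part of the genotype or of library preparation cannot be told apart here.

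**Figure D5:**
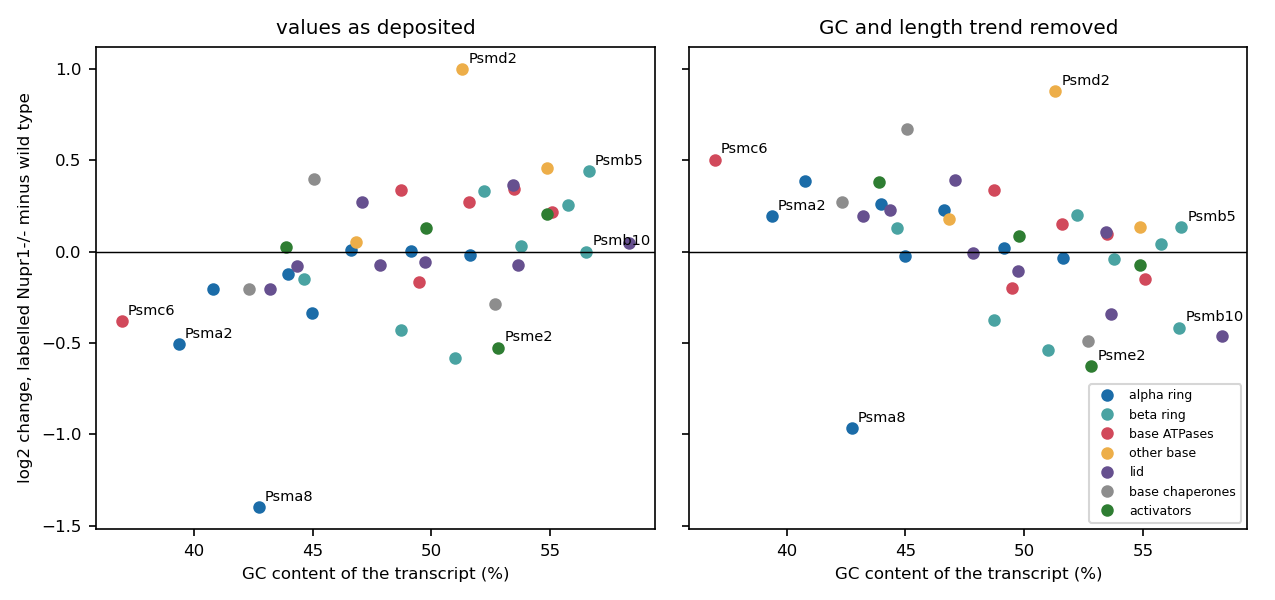
Log2 change of the 40 subunit genes (vertical axis) against the GC content of the transcript in percent (horizontal axis), as deposited (left) and with the GC and length trend of each library removed (right); colours mark the subcomplex. On the left the low-GC genes Psmc6 and Psma2 lie below 0 and on the right above it, while Psme2 and Psmd2 keep their signs.

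Genes that assemble, feed or regulate the proteasome were followed as a list of 37 tested partners. With limma 1 was called higher (Ubb; 1.68% of all genes tested were called higher) and 3 lower (Akirin2, Zfand5 and Ubqln2; 2.12%), with 33 not called and a median log2 change of -0.07. All 4 calls were close to the threshold by limma. DESeq2 gave adjusted p of 0.00183 (Ubqln2), 0.00571 (Akirin2), 0.00656 (Zfand5) and 0.0305 (Ubb). It called 775 of all genes tested, against 418 with limma. With edgeR TMM the adjusted p was 0.0316, 0.0434, 0.0464 and 0.0935 in the same order. With the GC trend removed none of the 4 was called, but Akirin2 and Ubqln2 kept the size of their change while Zfand5 and Ubb did not. Of the fits that left out 1 library each was called only in the one without wild type library 2.

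Akirin2, which brings proteasomes into the nucleus, was 368.3, 140.9, 300.1 and 269.8 in wild type and 112.3, 94.8, 77.7 and 128.7 in labelled knockouts, without overlap. It fell by 1.32 on the log2 scale (limma adjusted p = 0.0493), and its value was -1.21 with the GC trend removed (limma adjusted p = 0.160). Zfand5, a proteasome-binding protein, was 1910, 953.8, 1488 and 1530 in wild type and 672.3, 867.8, 885.3 and 923.2 in labelled knockouts. It fell by 0.78 (limma adjusted p = 0.0470), but its value was -0.12 with the GC and length trend removed (limma adjusted p = 0.857). Ubqln2, a shuttle that carries ubiquitinated proteins to the proteasome, was 238.8, 83.8, 237.3 and 304.6 in wild type and 48.1, 61.1, 66.3 and 73.1 in labelled knockouts. It fell by 1.65 (limma adjusted p = 0.0444), and its value was -1.73 with the GC trend removed (limma adjusted p = 0.104). Ubqln2 lies on the X chromosome, and the part of the Xist difference between the groups in its change was not tested. Ubb, which encodes polyubiquitin, was 8545, 15493, 11321 and 10467 in wild type and 19375, 16476, 15688 and 15171 in labelled knockouts. It rose by 0.57 (limma adjusted p = 0.0494, 0.0935 with edgeR), although wild type library 2 lay above the lowest labelled knockout. Its value was 0.27 with the GC trend removed (limma adjusted p = 0.521).

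Count tests called further partners, named here after their values were seen. Of all genes tested, DESeq2 called 775 and edgeR TMM 341. Shfm1, a small subunit of the lid whose symbol lies outside the gene set, was 580.0, 265.1, 263.2 and 653.8 in wild type and 147.3, 167.1, 182.0 and 225.0 in labelled knockouts, without overlap. Its log2 change was -1.17 ± 0.33 with a limma adjusted p of 0.0530, and the adjusted p was 0.0445 with edgeR and 0.00614 with DESeq2. With the GC trend removed its value was -0.31 (limma adjusted p = 0.748). Rad23b, a shuttle factor, was 286.9, 386.3, 218.4 and 243.4 in wild type and 106.5, 157.1, 127.2 and 125.0 in labelled knockouts, also without overlap. Its log2 change was -1.11 ± 0.31 (limma adjusted p = 0.0533), and -0.95 with the GC trend removed (limma adjusted p = 0.223). Rad23b was called by DESeq2 (adjusted p = 0.00905) but not by edgeR (adjusted p = 0.0523).

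The other partners picked by the rule for named genes did not pass. Nfe2l1, the transcription factor known to raise subunit genes when the proteasome is impaired, had 0.27 ± 0.34 (limma adjusted p = 0.697). Pomp, the maturation factor of the core, was 459 ± 45.2 in wild type and 439 ± 42.3 in labelled knockouts (log2 change -0.07). Adrm1, a ubiquitin receptor, had 0.40, and the deubiquitinases Uchl5 and Usp14 had 0.27 and -0.20, with Usp14 uncertain through an overlap of 2169 bases with Thoc1. Vcp, the ATPase that extracts ubiquitinated proteins, had -0.10 (limma adjusted p = 0.827).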

How the data were processed

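Polyadenylated RNA of sorted HSCs was converted to Nextera XT libraries, which do not mark strand, per the labels' protocols; bcl2fastq, HISAT2, featureCounts, Subread, DESeq2 and the build mm10 are named in the submitters' processing notes, with no versions or settings. The deposited table is presented as raw counts, but by its values it holds a normalised signal: every value is a whole multiple of 1 step per library (100% within a tolerance of 0.001), so the reads divided by 1 size factor. Of 11855 entries, 1 has no name (left out; at most 0.00109% of reads of a library). As the table holds no raw counts, limma 3.58.1 (trend and robust, R 4.3.3, two-sided, Benjamini-Hochberg) was run on log2(value + 1) for genes with at least 10 in at least 4 libraries. Adding 1 shrinks the log2 change of low genes, yet that of Psma8 was larger in size by limma (-1.40) than with edgeR and DESeq2 (-1.08). edgeR 4.0.16 and DESeq2 1.42.0 were run on the recovered reads. The limma steps were tested on simulated reads with no GC or length trend between libraries and only changes of 2-fold or more. That test cannot speak for smaller changes or for how the removal handles such a trend. Of 11853 symbols, 11716 matched GENCODE M21 (GRCm38) for length, GC content and overlaps; near-identical copies share at least 98% of bases over at least 50. Named genes were members past the threshold, those of smallest p in each direction and highest mean in each subcomplex, and a short set of catalytic, receptor and activator genes; partners past the threshold and 6 others were added. Members and lists were chosen with earlier results of these data known. Same-numbered libraries did not deviate together (correlations -0.06 to 0.01), so replicate numbers were not used as pairs.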

Additional observations from a re-analysis of the deposited data

Results flagged for a closer look

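In 4 of 104 groups of 4 libraries checked (52 genes, each in both genotypes), 1 library stood apart from the other 3, with a gap to its nearest neighbour that was a larger share of the group's range than Dixon's critical value at 95% allows. Chance gives about 1 in 20 such groups. Psmb2, a structural subunit of the beta ring, was 355.7 normalised reads in wild type library 2, below the 667.0 to 712.9 of the other 3. Psmd12, a lid subunit, was 194.2 in wild type library 4, against 262.1 to 264.6 in the others. Psmd5, a chaperone of base assembly, was 282.9 in labelled knockout library 1, above the 219.1 to 229.4 of the others. Psmb9, an inducible subunit outside the gene set, was 224.3 in wild type library 3, below the 444.4 to 484.8 of the others.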

How the results depend on the processing

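The number of all tested genes called, 418 in the reported fit, was 775 with DESeq2, 277 with the replicate block (replicate number as a term), 26 with the GC and length trend removed and 25 with that removal and the replicate block. It ran from 48 to 883 when 1 library was left out, with 883 without wild type library 2, 48 and 60 without labelled knockout libraries 2 and 1, 119, 126 and 155 without wild type libraries 1, 3 and 4, and 150 and 238 without labelled knockout libraries 3 and 4. The count of subunit genes called stayed at 0 except for 1 (Psmd2) without wild type library 2, and the replicate block changed no member's call. With the GC trend removed, with or without the replicate block, the median log2 change was 0.10 over all members, 0.11 in the alpha ring, 0.12 for base ATPases, 0.18 for other base genes, 0.15 for the base and 0.27 for the chaperones. Leaving out 1 library gave medians of 0.16 to 0.31 for base ATPases, 0.29 to 0.66 for other base genes, 0.17 to 0.33 for the base and -0.090 to 0.21 for the activators.

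Signs turned for some genes, and the cause was not tested. With the GC trend removed the 12 members were Psma2 (0.19), Psma1 (0.26), Psma3 (0.38), Psmb1 (0.13), Psmb3 (-0.042), Psmc6 (0.50), Psmc3 (-0.15), Psmd3 (-0.46), Psmd12 (0.23), Psmd14 (0.19), Psme1 (-0.076) and Psmd10 (0.27), and the named partners Nfe2l1 (-0.033), Adrm1 (-0.16) and Usp14 (0.52). With edgeR TMM, edgeR upper quartile and DESeq2, Psma6 had -0.027, -0.015 and -0.025 and Psme4 had -0.088, -0.085 and -0.087. Leaving out 1 library gave -0.13 to 0.15 for Psma6, -0.41 to 0.016 for Psmd14, -0.17 to 0.012 for Psmd8, -0.10 to 0.10 for Psmb10, -0.35 to 0.033 for Psmd10, -0.015 to 0.26 for Psme3, -0.24 to 0.37 for Psme4 and -0.19 to 0.040 for Vcp. The calls of Akirin2, Zfand5, Ubqln2 and Ubb were lost with the replicate block (limma adjusted p = 0.0647, 0.0700, 0.0563 and 0.0827) and without the filter on low values. Depth limits Psma8 most, with 7 reads in its lowest library.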
